A study of Mus musculus with 11 samples.

Results

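The genes described here are 10 chromatin regulators, Ezh1, Ezh2, Eed, Suz12, Bmi1, Asxl1, Asxl2, Kdm1a, Kdm6b and Kmt2a. They were taken by mouse symbol from the 51912 genes of a table of raw RNA-seq counts, and all 10 had counts in all 11 samples. The samples were lineage-negative C57BL/6 mouse bone marrow cells of 3 groups, transduced with a pair of retroviral vectors in order to ask whether the order in which 2 leukemia oncogenes are acquired matters. Each cell thus held a GFP-marked MIG vector, which is always on, beside a red-fluorescent idsRed vector, which stays off until Cre acts on it. CEBPA-first cells (n = 4) carried a C-terminal CEBPA mutant in MIG and an activating CSF3R mutant in idsRed. CSF3R-first cells (n = 3) carried the same oncogenes the other way round, and CSF3R-only cells (n = 4) carried mutant CSF3R in MIG with an empty idsRed vector. All groups therefore carried mutant CSF3R and were cultured for 48 h without cytokines in 4-hydroxytamoxifen, which activates the Cre. In CEBPA-first the CSF3R mutant could come on only after Cre acted, whereas in the other groups it was in the vector that is always on. CEBPA-first thus differed from CSF3R-only in the timing and vector of CSF3R as well as in mutant CEBPA. These differences cannot be told apart. The study describes ERT2-Cre driven from the Rosa26 locus as the source of recombinase for this system, and the labels give neither the age nor the sex of the donors. The inserts are human genes driven by a retrovirus in a whole progenitor pool, so that levels and cell types may vary within a sample. No group without mutant CSF3R was analysed here. Nothing in the labels says that replicates came from separate animals or cultures, so p-values measure only the spread between these samples.

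Polycomb proteins keep genes silent through marks on histones. Polycomb repressive complex 2 (PRC2) methylates lysine 27 of histone H3: EZH2 or its paralogue EZH1 holds the catalytic site, EED reads and propagates the mark, and SUZ12 is the scaffold. BMI1 belongs to PRC1, which ubiquitinates histone H2A, and ASXL1 and ASXL2 activate the BAP1 enzyme of the PR-DUB complex, which removes that ubiquitin. KDM6B (JMJD3) and KDM6A (UTX) remove methyl groups from lysine 27. KMT2A (MLL1) methylates lysine 4 and counteracts Polycomb at homeobox genes, and KDM1A (LSD1) removes methyl groups from lysine 4 within the CoREST complex. EZH2 is typical of dividing progenitors and EZH1 of resting and mature blood cells, and several of these genes are mutated or are drug targets in myeloid leukemia.

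The promoters of the PRC2 core genes are shown because these genes moved together in the counts described below while Ezh1 moved the other way. Sequences are from RefSeq (GRCm38.p6) and run 5′ to 3′ from 250 bases before the annotated start to 30 bases after it. They lie at chr6:47595001-47595280 (minus strand, Ezh2), chr11:79992856-79993135 (plus strand, Suz12), chr7:89980947-89981226 (minus strand, Eed) and chr11:101226434-101226713 (minus strand, Ezh1). Capitals mark matches on either strand to 1 of 4 E2F octamers (TTTCCCGC, TTTGGCGC, TTTCGCGC or TTTGCCGC) and to the CCAAT box.
Ezh2: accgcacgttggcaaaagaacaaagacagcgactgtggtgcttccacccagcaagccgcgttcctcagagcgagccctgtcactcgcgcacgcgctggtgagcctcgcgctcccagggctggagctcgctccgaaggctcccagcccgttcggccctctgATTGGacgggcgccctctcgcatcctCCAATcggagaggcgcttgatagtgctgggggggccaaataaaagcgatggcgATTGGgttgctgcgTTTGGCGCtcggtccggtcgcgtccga
Suz12: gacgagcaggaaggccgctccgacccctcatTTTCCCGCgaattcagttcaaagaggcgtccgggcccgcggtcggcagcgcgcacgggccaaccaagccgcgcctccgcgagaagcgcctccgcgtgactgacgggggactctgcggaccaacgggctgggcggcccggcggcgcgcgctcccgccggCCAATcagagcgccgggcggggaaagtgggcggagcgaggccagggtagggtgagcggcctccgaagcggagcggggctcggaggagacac
Eed: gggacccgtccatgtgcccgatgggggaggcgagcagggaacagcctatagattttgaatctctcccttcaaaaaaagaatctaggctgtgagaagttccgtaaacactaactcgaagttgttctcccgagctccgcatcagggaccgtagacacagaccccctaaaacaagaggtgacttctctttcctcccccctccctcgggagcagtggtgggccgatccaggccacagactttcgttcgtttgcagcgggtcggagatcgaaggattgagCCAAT
Ezh1: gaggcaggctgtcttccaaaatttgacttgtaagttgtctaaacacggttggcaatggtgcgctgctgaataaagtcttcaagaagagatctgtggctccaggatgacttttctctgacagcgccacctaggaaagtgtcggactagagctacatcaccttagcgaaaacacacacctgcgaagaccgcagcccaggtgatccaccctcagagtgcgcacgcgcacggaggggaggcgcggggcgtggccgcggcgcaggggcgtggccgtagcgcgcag

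An E2F octamer stood in the Ezh2 promoter (TTTGGCGC at positions 4 to 11, counted from the start) and in the Suz12 promoter (TTTCCCGC at positions -219 to -212). It was in none of the other 7 member promoters and in 2.26% of the 32851 RefSeq mouse promoters, searched over the same window of 300 bases. CCAAT boxes were in the promoters of Ezh2 (at 3 positions), Suz12, Eed and Kdm1a, against 37.4% of all promoters. The C/EBP motif TTGCNNAA (10.8% of all promoters), the STAT motif TTCNNNGAA (8.3%) and the ETS motif GAGGAAGT (3.2%) had no match in the 9 member promoters. MYB (AACNGNC) had matches in 5 of the 9 against 32.8% of all promoters, the GC box (GGGCGG) in 5 against 35.7% and the E-box (CACGTG) in 2 against 7.15%. None of the E2F or CCAAT matches overlapped another motif searched. These are letter matches in a short window and were not tested as binding sites. Kdm6b has no entry in the promoter table.

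The libraries held 47905747 to 72268346 counts, and no member had fewer than 322 counts in any library. CSF3R-first replicate A stood apart from replicates B and C of its group (chi-square per degree of freedom of 110 and 82.2 over genes, against 9.95 to 43 for the other pairs of replicates). Fold changes of Ezh2, Suz12 and Kdm1a are also given without replicate A. The ranges of CSF3R-first include it, and it sets their upper end for the summed neutrophil and stimulus-induced genes. Although the cells were sorted as lineage-negative before culture, 13 neutrophil maturation genes summed to 28082 to 34650 CPM (the usual unit of counts scaled to library size, here with TMM normalization) in CSF3R-only, with 15257 to 26527 CPM for CSF3R-first and 6681 to 8886 CPM for CEBPA-first. In CEBPA-first against CSF3R-only all 13 fell, as did 8 of 9 monocyte (the other, Ly6c2, rose by a log2 fold change of 0.32), 7 of 7 megakaryocyte and 8 of 9 erythroid markers. Of 6 mast cell and basophil markers 3 fell and 1 rose, and of 4 stroma and endothelium markers tested 1 fell and 2 rose. Of 4 lymphoid markers tested 3 fell and 1 rose, and the list summed to 34.7 to 53.3 CPM in CSF3R-only, with 23.3 to 27 CPM for CSF3R-first and 7.94 to 9.42 CPM for CEBPA-first. Most of that sum was Il7r, a receptor also found on lymphoid progenitors, at 33.4 to 52.1 CPM in CSF3R-only and 7.09 to 8.43 CPM in CEBPA-first (log2 fold change of -2.42 ± 0.12, edgeR adjusted p = 4.57e-09), while Ebf1, Pax5 and Cd3e had at most 2 counts in any library. In CSF3R-first against CSF3R-only 12 of 13 neutrophil, 7 of 9 monocyte and 7 of 7 megakaryocyte markers fell. So did 5 of 6 mast cell and basophil markers, and no erythroid marker was called. In CEBPA-first against CSF3R-first 13 of 13 neutrophil, 7 of 9 monocyte, 7 of 7 megakaryocyte and 8 of 9 erythroid markers fell. Of the mast cell and basophil markers 3 rose and 2 fell there. Fewer cells of a type and less RNA per cell cannot be told apart in such bulk samples, and the part of cell composition in the values below was not tested. The mouse gene of the receptor oncogene, Csf3r, was at 779 to 986 CPM in CSF3R-only, with 427 to 649.8 CPM for CSF3R-first and 131 to 167 CPM for CEBPA-first, and mouse Cebpa was at 78.5 to 95.1, 119 to 140.0 and 161 to 173 CPM. How far reads of the human inserts align to these genes was not tested.

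In CEBPA-first against CSF3R-only, all 10 genes changed. Ezh2, Eed, Suz12, Bmi1, Asxl1, Asxl2 and Kdm1a rose, by 1.23-fold (Asxl2) to 1.87-fold (Ezh2), and Ezh1, Kdm6b and Kmt2a fell. Across all 15703 genes tested with edgeR's quasi-likelihood test, 72.0% were called at an adjusted p below 0.05 (35.4% higher and 36.6% lower), so that a call on its own sets these genes little apart from the rest. Sample ranges did not overlap for 9 of the 10 (7 higher and 2 lower), against 68.7% of all genes (34.2% higher and 34.5% lower). In CSF3R-first against CSF3R-only, 6 of the 10 were called (4 higher, 2 lower) against 42.7% of all genes (21.6% higher, 21.1% lower), and ranges did not overlap for 6 against 42.1%. In CEBPA-first against CSF3R-first, 6 were called (5 higher, 1 lower) against 48.3% (24.0% higher, 24.3% lower), and ranges did not overlap for 8 against 52.2% (27.4% higher, 24.8% lower). The median log2 fold change of all tested genes was -0.004, -0.022 and 0.001 in the 3 comparisons. These comparisons share samples and are not independent. The mean of CSF3R-first was intermediate for 9 of the 10 genes, Kdm1a being the exception, and for 76.2% of all tested genes.

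**Figure D1:**
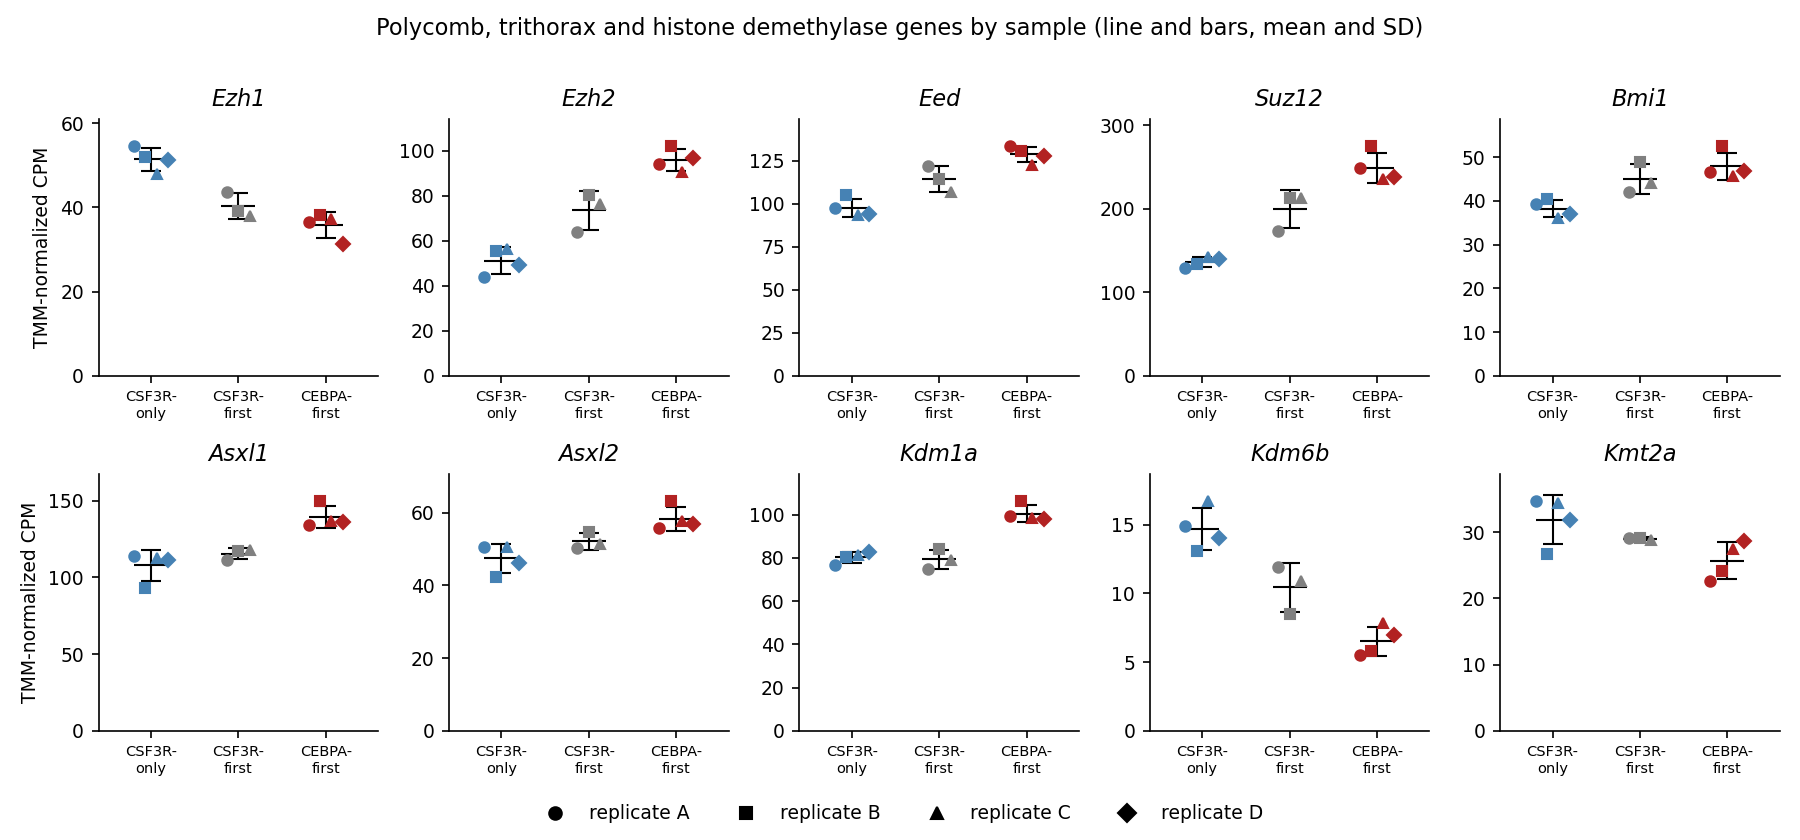
TMM-normalized CPM of the 10 genes in each of the 11 samples, with the group on the horizontal axis, a symbol for each replicate letter, and a line and bars for the mean and SD. Ezh2 and Suz12 are lowest and Kdm6b is highest in CSF3R-only, with CSF3R-first in the middle and no overlap between groups, whereas Kdm1a is raised in CEBPA-first alone.

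Ezh2 (chr6:47530139-47595341, minus strand; positions are from GENCODE M21, GRCm38), the PRC2 catalytic subunit of dividing cells, rose in all 3 comparisons, as did Suz12 by amounts within the standard errors of those of Ezh2. It was at 43.7, 55.5, 56.4 and 49.0 CPM in CSF3R-only replicates A to D, at 63.9, 80.2 and 76.2 CPM in CSF3R-first replicates A to C, and at 93.9, 102, 90.3 and 96.6 CPM in CEBPA-first replicates A to D. The 3 groups did not overlap, and CSF3R-first replicate A was the sample of its group nearest to CSF3R-only. Against CSF3R-only, CEBPA-first had a log2 fold change of 0.90 ± 0.091 (SE, edgeR adjusted p = 1.46e-06). It was 0.52 ± 0.097 in CSF3R-first against CSF3R-only (adjusted p = 0.00127) and 0.38 ± 0.098 in CEBPA-first against CSF3R-first (adjusted p = 0.00658). Without CSF3R-first replicate A the last difference was 0.29 (adjusted p = 0.028).

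Ezh1 (chr11:101191115-101226463, minus strand), the paralogue that can take the place of Ezh2 in PRC2, went the other way. It was at 54.5, 52.0, 47.8 and 51.2 CPM in CSF3R-only, at 43.7, 39.1 and 37.9 CPM in CSF3R-first and at 36.5, 38.2, 37.3 and 31.4 CPM in CEBPA-first. All samples with mutant CEBPA lay below all CSF3R-only samples, while the ranges of CSF3R-first and CEBPA-first overlapped. Its log2 fold change was -0.52 ± 0.074 in CEBPA-first against CSF3R-only (edgeR adjusted p = 3.26e-05) and -0.35 ± 0.081 in CSF3R-first against CSF3R-only (adjusted p = 0.00421). Between CEBPA-first and CSF3R-first it was -0.17 ± 0.080 and did not pass the test (adjusted p = 0.104).

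The balance between the paralogues was read within each library, where it does not depend on normalization. Per exon length, Ezh2 made up 47.2%, 54.3%, 56.8% and 51.6% of the sum of Ezh1 and Ezh2 in CSF3R-only. The share was 61.9%, 69.6% and 69.1% in CSF3R-first, and 74.1%, 74.8%, 72.9% and 77.4% in CEBPA-first. The groups did not overlap. Group means were 52.5% ± 4.11 (SD, n = 4), 66.9% ± 4.29 (n = 3) and 74.8% ± 1.88 (n = 4). The level of the share, but not the order of the groups, depended on the length used. With the longest coding transcript in place of all exons, a choice made after seeing the data, the shares were 59.9% ± 3.97, 73.2% ± 3.82 and 80.1% ± 1.59, again without overlap. No test was made of these shares.

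Suz12 (chr11:79993106-80034123, plus strand), the PRC2 scaffold, tracked Ezh2. It was at 129.6, 134, 143 and 139 CPM in CSF3R-only, at 174, 213 and 212.5 CPM in CSF3R-first and at 248, 275, 235.5 and 238 CPM in CEBPA-first. No group overlapped another, and CSF3R-first replicate A was again the lowest of its group. Log2 fold changes were 0.87 ± 0.077 in CEBPA-first against CSF3R-only (edgeR adjusted p = 5.09e-07), 0.55 ± 0.082 in CSF3R-first against CSF3R-only (adjusted p = 0.000334) and 0.32 ± 0.083 in CEBPA-first against CSF3R-first (adjusted p = 0.00738). Without CSF3R-first replicate A the last value was 0.23 (adjusted p = 0.0285).

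Eed (chr7:89954654-89980983, minus strand), the subunit that binds the methylated histone tail, moved less. It was at 97.7, 105, 93.6 and 94.0 CPM in CSF3R-only, at 122, 114 and 107 CPM in CSF3R-first and at 133, 131, 123 and 127 CPM in CEBPA-first. The ranges did not overlap, but neighbouring groups came close, and here CSF3R-first replicate A was the highest of its group. The log2 fold change was 0.40 ± 0.060 in CEBPA-first against CSF3R-only (edgeR adjusted p = 4.92e-05) and 0.23 ± 0.064 in CSF3R-first against CSF3R-only (adjusted p = 0.0131). In CEBPA-first against CSF3R-first it was 0.17 ± 0.065 (adjusted p = 0.0435). That last call was lost without any of 8 libraries: CSF3R-only A, C or D (adjusted p = 0.052, 0.0542 and 0.058), CEBPA-first A, B or D (0.105, 0.0849 and 0.0631) and CSF3R-first B or C (0.0777 and 0.185).

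The core subunits were also set against each other within each library, without a test. There were 1.33, 1.27, 1.53 and 1.48 Suz12 counts per Eed count in CSF3R-only. CSF3R-first had 1.43, 1.87 and 1.99, and CEBPA-first had 1.86, 2.1, 1.92 and 1.87. CSF3R-first replicate A lay within the CSF3R-only range, and replicates B and C lay with CEBPA-first. The ratio of Suz12 to Ezh2 counts stayed between 2.41 and 2.96 over all 11 samples, with group means of 2.69 ± 0.258, 2.72 ± 0.0634 and 2.61 ± 0.0995 (SD). The histone-binding subunits outside the 10 genes, Rbbp4 and Rbbp7, also rose in CEBPA-first against CSF3R-only, with log2 fold changes of 0.56 ± 0.065 and 1.03 ± 0.085 (edgeR adjusted p = 4.94e-06 and 2.76e-07). Both proteins also serve other histone deacetylase and chromatin assembly complexes.

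**Figure D2:**
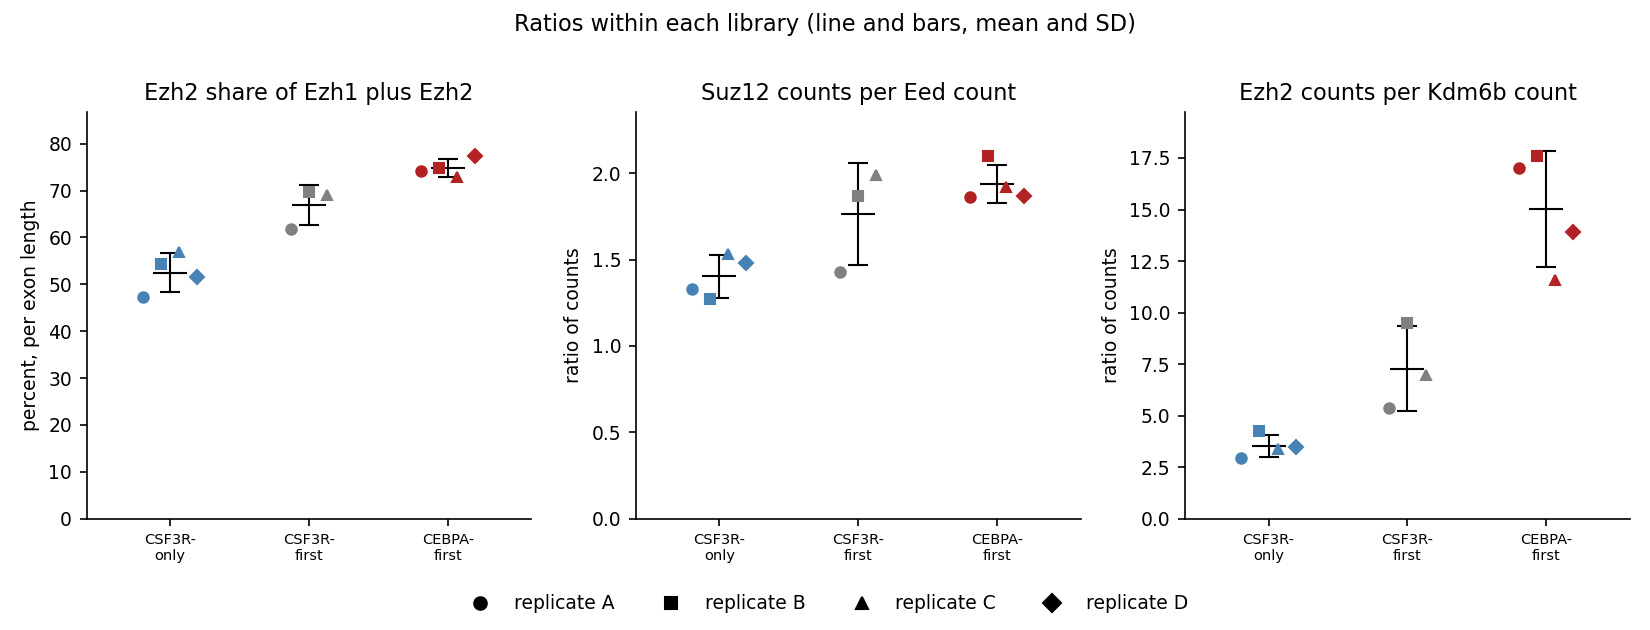
Ratios within each library by group, with a symbol for each replicate letter and a line and bars for the mean and SD: the percentage of Ezh2 in the sum of Ezh1 and Ezh2 per exon length, Suz12 counts per Eed count, and Ezh2 counts per Kdm6b count. The Ezh2 share rises from 47.2-56.8% in CSF3R-only to 72.9-77.4% in CEBPA-first, and the Ezh2 to Kdm6b ratio from 2.94-4.25 to 11.6-17.6.

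Among the PRC2 accessory genes, which steer the complex to its sites, changes ran in both directions. Of 8 tested, 4 rose and 3 fell in CEBPA-first against CSF3R-only, with a median log2 fold change of 0.44. Phf1 and Phf19, paralogues whose proteins bind methylated lysine 36 of histone H3, moved oppositely. Phf1 went from 25.7-29.4 CPM in CSF3R-only to 12-18.4 CPM in CSF3R-first and 6.12-6.95 CPM in CEBPA-first (log2 fold change of -2.11 ± 0.12 between the outer groups, edgeR adjusted p = 1.18e-08). Phf19 went from 2.22-3.29 to 4.02-4.39 and 7.67-10.1 CPM (1.67 ± 0.14, adjusted p = 2.39e-07). The ranges of the 3 groups did not overlap for either gene. Epop (1.21 ± 0.12) and Aebp2 (0.77 ± 0.061) rose as well, and Jarid2 (-0.43 ± 0.073) and Lcor (-0.39 ± 0.12) fell.

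Kdm6b (chr11:69398508-69413675, minus strand), the inducible lysine 27 demethylase, had the largest change in size of the 10 in both comparisons of CEBPA-first, though not in CSF3R-first against CSF3R-only. It alone of the 10 reached a log2 change of 1 besides the adjusted p in CEBPA-first against CSF3R-only, as 27% of all genes did, and with scaling by library size only Ezh2 passed it as well (1.03) and Suz12 came to it within rounding (1.0). None of the 10 did so in CSF3R-first against CSF3R-only or in CEBPA-first against CSF3R-first, against 6.65% and 12.8% of all genes, and DESeq2, limma-voom and an unadjusted p under 0.05 likewise gave 0. Kdm6b was at 14.9, 13.1, 16.7 and 14.0 CPM in CSF3R-only, at 11.9, 8.47 and 10.9 CPM in CSF3R-first and at 5.51, 5.80, 7.81 and 6.93 CPM in CEBPA-first. The groups did not overlap. Its log2 fold change was -1.17 ± 0.13 in CEBPA-first against CSF3R-only (edgeR adjusted p = 4.64e-06), a 2.25-fold fall, and -0.68 ± 0.14 in CEBPA-first against CSF3R-first (adjusted p = 0.00219). In CSF3R-first against CSF3R-only it was -0.49 ± 0.14 (adjusted p = 0.0155), and -0.36 (adjusted p = 0.0796) without CSF3R-first replicate B. Ezh2 counts per Kdm6b count averaged 3.52 ± 0.541 in CSF3R-only, against 7.27 ± 2.07 for CSF3R-first and 15.0 ± 2.82 for CEBPA-first (SD).

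The other lysine 27 demethylase gene, Kdm6a, is expressed in most tissues and did not pass the test. It was at 53.4 to 57.0 CPM in CSF3R-only, with 52.1 to 58.8 CPM for CSF3R-first and 52.5 to 61.6 CPM for CEBPA-first, with overlapping ranges and a log2 fold change of 0.04 ± 0.066 between the outer groups (edgeR adjusted p = 0.572). Uty, its Y-linked paralogue with little demethylase activity, was at 29.5 to 35.8 CPM over the 11 libraries (-0.01 ± 0.067, adjusted p = 0.931). Kdm5d, another Y-linked gene, was at 20.1 to 24.1 CPM. Both were thus counted in all 11 libraries, although the study's methods speak of female mice. Genes known to be induced by the same kinds of stimulus as Kdm6b also fell. Of 12 genes induced by NF-kB and other stimuli, all fell in CEBPA-first against CSF3R-only (median log2 fold change of -2.04), among them Nfkbia (-2.01 ± 0.12) and Il1b (-4.89 ± 0.24). Their summed level was 1249 to 1584 CPM in CSF3R-only, with 668 to 1041 CPM for CSF3R-first and 342 to 405 CPM for CEBPA-first, and their part, or that of the myeloid markers above, in the Kdm6b result was not tested.

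**Figure D3:**
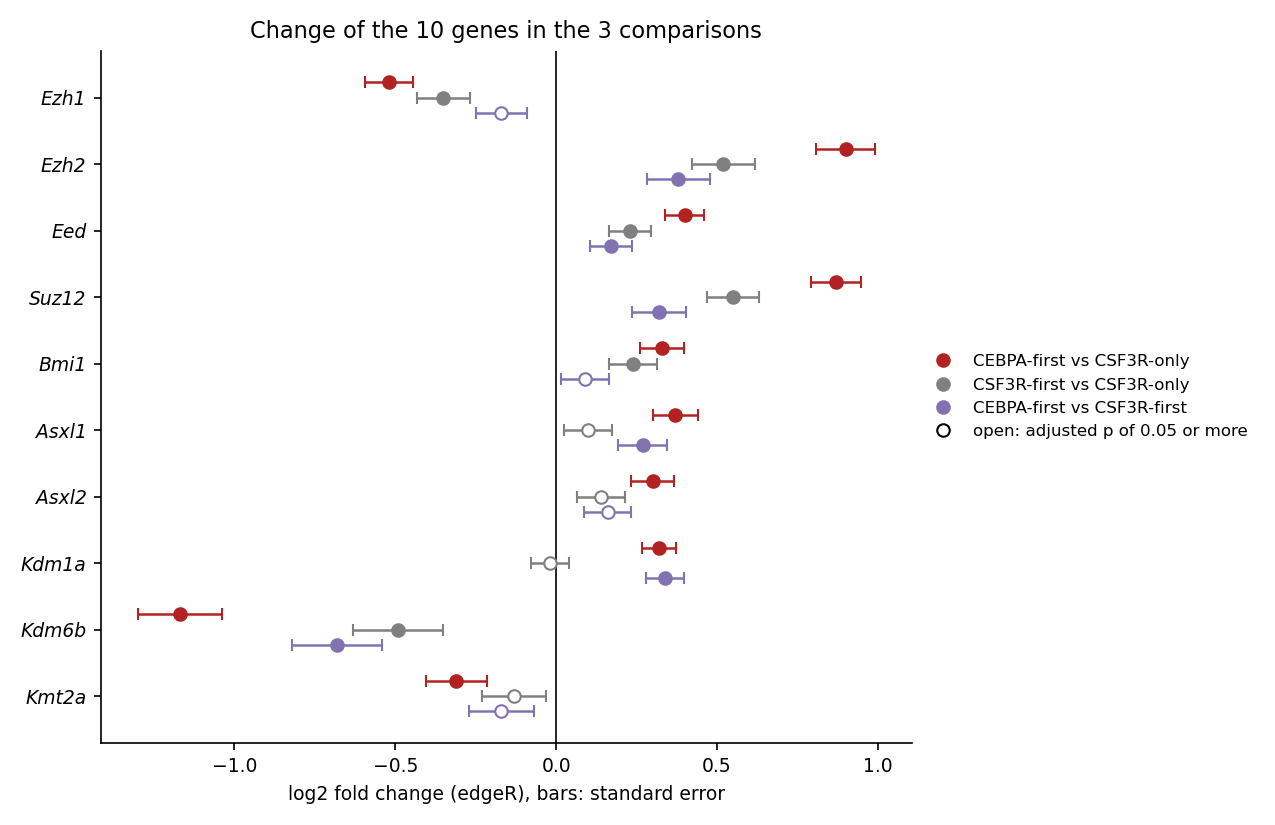
Log2 fold changes (edgeR) of the 10 genes in the 3 comparisons, with bars for the standard error and open symbols for an adjusted p of 0.05 or more. Kdm6b reaches -1.17 in CEBPA-first against CSF3R-only, Ezh2 and Suz12 reach 0.90 and 0.87, and the value of Kdm1a in CSF3R-first against CSF3R-only is -0.02.

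Bmi1 (chr2:18677018-18686629, plus strand), the PRC1 subunit known for stem cell self-renewal, rose modestly. It was at 39.4, 40.4, 36.1 and 37.0 CPM in CSF3R-only, at 42.1, 48.9 and 44.0 CPM in CSF3R-first and at 46.6, 52.5, 45.8 and 46.8 CPM in CEBPA-first. CSF3R-only lay below both other groups, which overlapped each other. Its log2 fold change was 0.33 ± 0.068 in CEBPA-first against CSF3R-only (edgeR adjusted p = 0.000754), and 0.09 ± 0.074 in CEBPA-first against CSF3R-first (adjusted p = 0.334). In CSF3R-first against CSF3R-only it was 0.24 ± 0.074 (adjusted p = 0.0206), a call lost without CSF3R-only replicate C (adjusted p = 0.0572) or D (0.0548) or without CSF3R-first replicate B (0.11). Of the other 22 PRC1 genes tested, 11 rose, 7 fell and 4 did not pass the test in CEBPA-first against CSF3R-only, with a median log2 fold change of 0.31. The highest were Pcgf6 (1.49 ± 0.13), Kdm2b (1.13 ± 0.11) and L3mbtl2 (1.0 ± 0.096), all of variant PRC1 assemblies that lack BMI1. The lowest were Phc1 (-0.55 ± 0.12), a subunit of canonical PRC1, Rybp (-0.42 ± 0.086) and Pcgf1 (-0.36 ± 0.099).

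Asxl1 (chr2:153345829-153404007, plus strand) and Asxl2 (chr12:3426857-3506852, plus strand), the regulatory subunits of PR-DUB, changed in parallel. Asxl1 was at 114, 92.9, 113 and 112 CPM in CSF3R-only, at 112, 117 and 118 CPM in CSF3R-first and at 134, 149.8, 137 and 136 CPM in CEBPA-first. Only CEBPA-first stood apart, above both other groups. Log2 fold changes of Asxl1 were 0.37 ± 0.070 in CEBPA-first against CSF3R-only (edgeR adjusted p = 0.000373), 0.27 ± 0.076 in CEBPA-first against CSF3R-first (adjusted p = 0.0116) and 0.10 ± 0.075 in CSF3R-first against CSF3R-only (adjusted p = 0.311). Asxl2 was at 50.6, 42.4, 50.5 and 46.3 CPM in CSF3R-only, at 50.3, 54.6 and 51.4 CPM in CSF3R-first and at 55.8, 63.2, 57.6 and 56.8 CPM in CEBPA-first. Its ranges had the same order, and CSF3R-only replicate B was the lowest and CEBPA-first replicate B the highest sample for both genes. For Asxl2 the log2 fold change was 0.30 ± 0.068 in CEBPA-first against CSF3R-only (adjusted p = 0.00152), and the values of 0.16 ± 0.074 and 0.14 ± 0.074 in the other comparisons did not pass the test (adjusted p = 0.0856 and 0.159). Asxl1 counts per Asxl2 count lay between 2.15 and 2.41 in all 11 samples. Of the rest of PR-DUB, 7 genes were tested. Foxk2 (0.68 ± 0.076), Hcfc1 (0.54 ± 0.087) and the deubiquitinase gene Bap1 (0.41 ± 0.054) rose in CEBPA-first against CSF3R-only, and Ogt (-0.75 ± 0.10), Mbd6 (-0.58 ± 0.092) and Mbd5 (-0.44 ± 0.083) fell. Asxl3 had no count in any library.

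Kdm1a (chr4:136550540-136602723, minus strand), the lysine 4 demethylase of the CoREST complex, was like Asxl1 and Asxl2 in that only CEBPA-first stood apart. It was at 76.6, 80.3, 81.3 and 82.7 CPM in CSF3R-only, at 75.0, 83.9 and 78.8 CPM in CSF3R-first and at 99.4, 106, 98.3 and 97.9 CPM in CEBPA-first. All CEBPA-first samples lay above all others, and the other groups overlapped throughout. Log2 fold changes were 0.32 ± 0.054 in CEBPA-first against CSF3R-only (edgeR adjusted p = 0.000125), 0.34 ± 0.059 in CEBPA-first against CSF3R-first (adjusted p = 0.000581) and -0.02 ± 0.059 in CSF3R-first against CSF3R-only (adjusted p = 0.83). The sign of the last value turned without CSF3R-first replicate A (0.02) or C (0.01), with adjusted p = 0.821 and 0.959. Of 12 partner genes, 6 rose and 4 fell in CEBPA-first against CSF3R-only. Rcor2 (1.85 ± 0.19), a CoREST scaffold gene, went from 4.81-7.72 CPM in CSF3R-only and 6.11-12.1 CPM in CSF3R-first to 23.4-27.5 CPM in CEBPA-first, where alone it stood apart. Gfi1 (0.91 ± 0.064), a repressor that recruits KDM1A in granulocyte progenitors, and Hdac2 (0.79 ± 0.087) rose. The Gfi1 paralogue of the erythroid and megakaryocyte lineages, Gfi1b (-1.07 ± 0.22), and Phf21a (-1.38 ± 0.14), whose protein reads unmethylated lysine 4, fell, as did Hmg20b (-0.50 ± 0.070).

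Kmt2a (chr9:44803355-44881296, minus strand), the lysine 4 methyltransferase of the MLL complex, had the largest adjusted p of the 10 in CEBPA-first against CSF3R-only. It was at 34.7, 26.7, 34.4 and 31.8 CPM in CSF3R-only, at 29.1, 29.2 and 28.8 CPM in CSF3R-first and at 22.6, 24.1, 27.5 and 28.7 CPM in CEBPA-first. CSF3R-only replicate B lay within the CEBPA-first range, so that these groups overlapped. The log2 fold change was -0.31 ± 0.095 in CEBPA-first against CSF3R-only (edgeR adjusted p = 0.0101), a call lost when counts were scaled by library size only (-0.17, adjusted p = 0.164). It was -0.13 ± 0.10 in CSF3R-first against CSF3R-only and -0.17 ± 0.10 in CEBPA-first against CSF3R-first (adjusted p = 0.314 and 0.178). Of 14 other genes of the MLL and SETD1 complexes tested, 8 rose, among them Psip1 (0.93 ± 0.076), whose protein LEDGF tethers MLL to chromatin, Dpy30 (0.76 ± 0.099) and Paxip1 (0.70 ± 0.064). Kmt2c (-0.51 ± 0.081) and Ncoa6 (-0.34 ± 0.065) fell, and 4 genes did not pass the test.

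**Figure D4:**
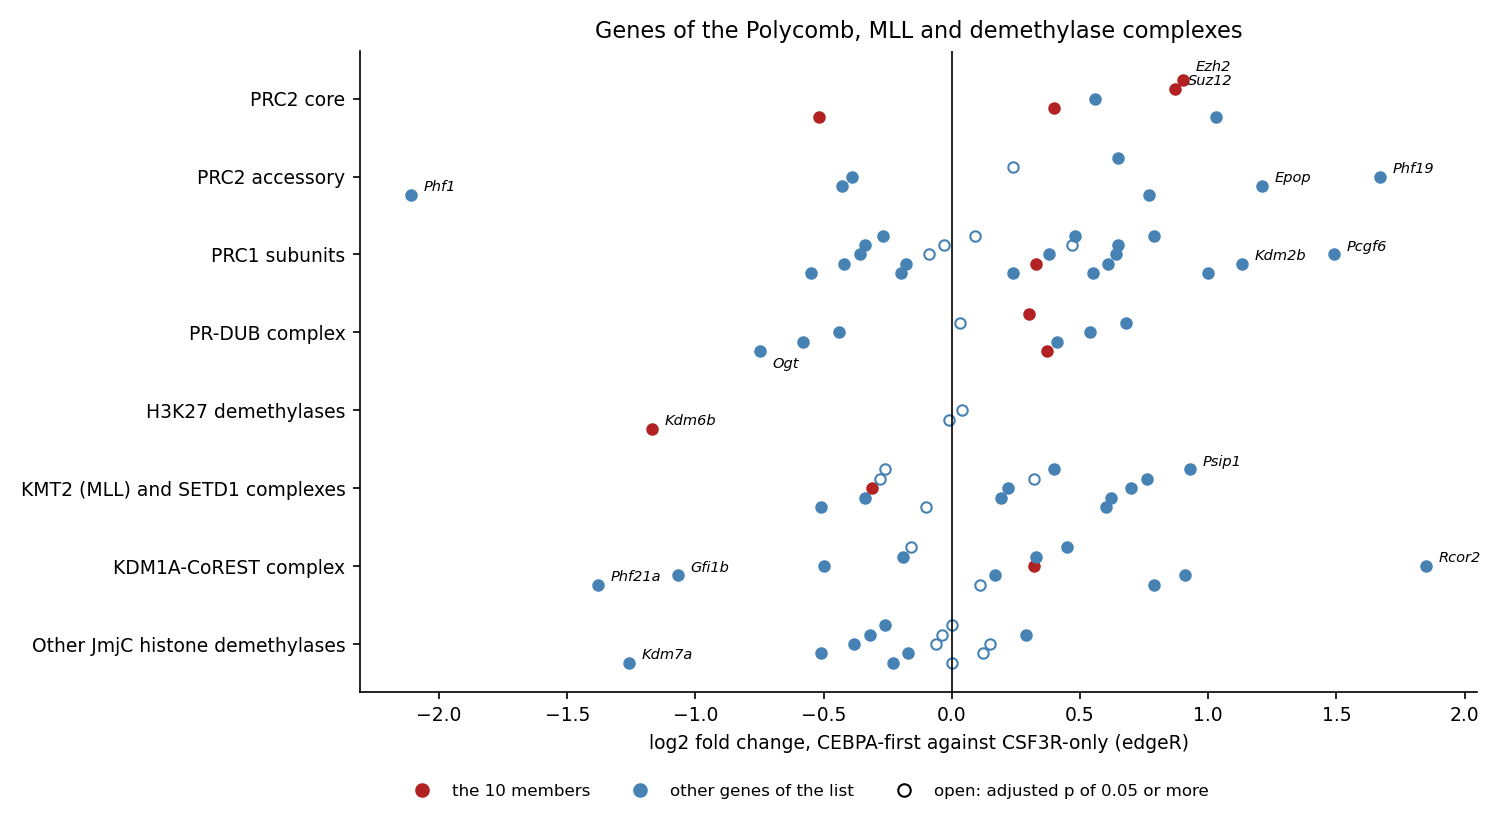
Log2 fold changes (edgeR, CEBPA-first against CSF3R-only) of the tested genes of 8 Polycomb, MLL and demethylase gene lists, each point a gene, with the 10 members in red and open symbols for an adjusted p of 0.05 or more. Calls run in both directions in each list but the lysine 27 demethylases, from -2.11 for Phf1 to 1.85 for Rcor2.

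Across the lists of these complexes, 81 genes besides the 10 were tested. In CEBPA-first against CSF3R-only 35 rose, 26 fell and 20 did not pass the test, with a median log2 fold change of 0.11. Calls thus covered 61 of 81 genes, against 72.0% of all genes. In CSF3R-first against CSF3R-only 24 rose and 12 fell, or 36 of 81 against 42.7% of all genes. In CEBPA-first against CSF3R-first 28 rose and 9 fell, or 37 of 81 against 48.3% of all genes (24.0% higher, 24.3% lower). Among 14 further JmjC demethylase genes, 7 fell and 1, Kdm5c (0.29 ± 0.082), rose in CEBPA-first against CSF3R-only. Kdm7a had the lowest value of these (-1.26 ± 0.13, edgeR adjusted p = 2.18e-06), at 233 to 322.5 CPM in CSF3R-only, with 173.5 to 248 CPM for CSF3R-first and 92.8 to 125.5 CPM for CEBPA-first. Kdm5b (-0.51 ± 0.089) and Phf8 (-0.38 ± 0.067) were next. Kdm2b, another JmjC gene, was counted with the PRC1 genes and not among these 14, and it rose (1.13 ± 0.11).

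Genes known from other systems as targets of Polycomb or MLL showed no common direction. Of 12 tested, 4 rose, 4 fell and 4 did not pass the test in CEBPA-first against CSF3R-only. Meis1, which MLL proteins sustain in leukemia, was at 18.0 to 20.9 CPM in CSF3R-only, with 9.17 to 14.6 CPM for CSF3R-first and 5.64 to 7.01 CPM for CEBPA-first (-1.55 ± 0.14, edgeR adjusted p = 5.23e-07). Its usual partner Hoxa9 went the other way, from 5.31-8.42 to 6.92-11.2 and 11.9-13.9 CPM (0.95 ± 0.16, adjusted p = 0.000106). Hoxa5, another homeobox gene, had only 4 to 46 counts a library (1.41 ± 0.34, adjusted p = 0.00216), and Pbx3, a cofactor of HOX proteins, was lower (-0.39 ± 0.097, adjusted p = 0.00255). Mecom, which encodes EVI1, was close to the limit of detection in CSF3R-only with 6 to 13 counts a library and had 119 to 223 counts a library in CSF3R-first, with 831 to 1028 for CEBPA-first. Cdkn2b, a cell cycle inhibitor under Polycomb control, was below 1 CPM in all samples (-1.77 ± 0.29, adjusted p = 8.95e-05).

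Levels were compared between the 10 genes per kilobase, and their order depended in part on the length used, since the files do not say which transcripts were counted. Per kilobase of all exons, Suz12 had the highest mean in each group, at 27.6 ± 1.18, 40.4 ± 4.57 and 50.4 ± 3.64 CPM per kilobase (SD, in the order CSF3R-only, CSF3R-first, CEBPA-first), followed by Eed at 25.5 ± 1.39, 29.8 ± 1.96 and 33.6 ± 1.19. Per kilobase of the longest coding transcript, Eed was above Suz12, at 47.2 ± 2.58, 55.3 ± 3.63 and 62.2 ± 2.21 against 31.2 ± 1.33, 45.7 ± 5.17 and 57.0 ± 4.12, so that the order of this pair is not settled. Kdm1a and Asxl1 overlapped in each group per kilobase of all exons (15.5 ± 0.501 and 14.5 ± 1.35 in CSF3R-only) and stood apart per kilobase of transcript (26.5 ± 0.858 and 15.5 ± 1.44). Ezh2 and Ezh1 likewise overlapped in CSF3R-only per kilobase of all exons (7.66 ± 0.892 and 6.90 ± 0.371) but not per kilobase of transcript (18.4 ± 2.14 and 12.2 ± 0.656). In CEBPA-first, Ezh2 lay above both Bmi1 and Ezh1 by either length, at 14.3 ± 0.731 against 12.1 ± 0.783 and 4.82 ± 0.409 per kilobase of all exons. By either length Asxl2, Kdm6b and Kmt2a had the lowest means in each group. Kdm6b and Kmt2a overlapped in CSF3R-only (2.11 ± 0.219 and 1.91 ± 0.223 per kilobase of all exons), and Kdm6b was below Kmt2a in CEBPA-first (0.936 ± 0.153 and 1.54 ± 0.173).

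The genes most like Ezh2 over the 11 samples, by Pearson correlation of log2 CPM, were Mcm2 (r = 0.999), Hnrnpa1 (r = 0.998) and Prps1 (r = 0.997). Mcm2 encodes a subunit of the helicase that unwinds DNA in S phase. The genes most like Ezh1 were Gpr107 (r = 0.991), Mbnl2 (r = 0.988) and Zxdc (r = 0.987). Among the members themselves, Ezh2 and Suz12 had r = 0.979, Asxl1 and Asxl2 r = 0.96, and Ezh1 and Ezh2 r = -0.94. These are descriptions of 11 libraries in 3 groups, and the points of every pair share the libraries and the order of the groups.

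Genes of dividing cells rose with Ezh2. Of 16, 15 rose and E2f2 fell (-0.66 ± 0.069) in CEBPA-first against CSF3R-only, with a median log2 fold change of 0.90. Their summed level was 3115 to 3684 CPM in CSF3R-only, with 4573 to 5357 CPM for CSF3R-first and 5775 to 6493 CPM for CEBPA-first. In CSF3R-first against CSF3R-only 15 rose and 1 did not pass the test. In CEBPA-first against CSF3R-first 12 rose, 1 fell and 3 did not pass the test. Mki67 was highest in CSF3R-first, at 395 to 437 CPM, against 356 to 381 CPM in CEBPA-first and 296 to 326 CPM in CSF3R-only. Ezh2 counts were 3.72%, 3.71%, 3.94% and 3.63% of the summed Mcm2 to Mcm7 counts in CSF3R-only. CSF3R-first had 3.44%, 3.54% and 3.64%, and CEBPA-first had 3.36%, 3.3%, 3.41% and 3.47%. Relative to these helicase genes, Ezh2 was thus slightly lower in every CEBPA-first sample than in any CSF3R-only sample. Suz12 counts were 8.97% to 11% of the same sum in CSF3R-only, with 9.35% to 10.1% for CSF3R-first and 8.55% to 8.91% for CEBPA-first. The part of cell division in the Ezh2 and Suz12 results was not tested.

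**Figure D5:**
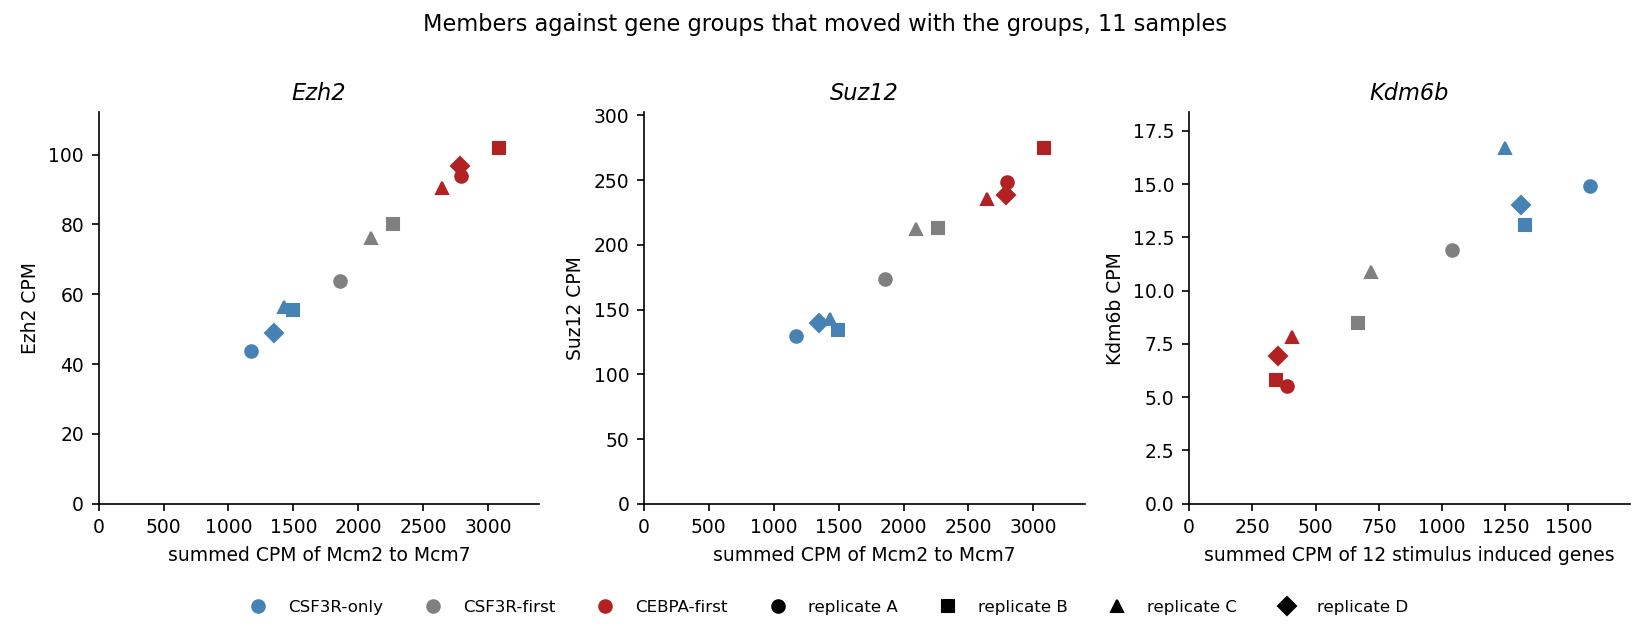
Ezh2 and Suz12 (CPM) against the summed CPM of Mcm2 to Mcm7, and Kdm6b (CPM) against the summed CPM of 12 stimulus-induced genes, for the 11 samples, colored by group with a symbol for each replicate letter. Samples lie in the order of the groups in each panel, and within CSF3R-first replicate A lies nearest to CSF3R-only in all 3.

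Reads of some members could be shared with other genes. Exons of 7 of the 10 overlap a gene on the opposite strand, over 0.972% (Asxl2) to 6.82% (Eed) of their exon bases, and the overlapping genes held 21 to 2129 counts over all libraries. Whether counting used strand is not given in the sources used here. Stretches of at least 100 bases at 97% identity in transcripts of other genes covered 12.6% of the Eed transcript, all in its opposite-strand neighbour E230029C05Rik, at most 4.9% of the other 9 and none of Ezh1, Ezh2 or Kdm1a.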

How the data were processed

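RNA-seq was performed by the authors on 11 samples of mouse bone marrow cells (CSF3R-only, n = 4; CSF3R-first, n = 3; CEBPA-first, n = 4), with libraries from the SMARTer low input kit and single reads. Reads were trimmed by the authors (Trimmomatic) and aligned to mm10 with STAR, per the labels. The deposited values are raw counts, whole numbers of reads per gene. The counting tool, its annotation and its strand setting are not given in the sources used here. DESeq2 is also named in the submitters' processing notes. Groups were taken from the sample titles.

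TMM normalization followed a filter on low counts by filterByExpr (15703 of 51912 genes kept, all 10 members among them). Groups were compared with edgeR 4.0.16 (quasi-likelihood test, R 4.3.3) in a single fit of the 3 groups without covariates, with Benjamini-Hochberg adjustment over all tested genes and a threshold of 0.05. Each standard error is derived from the log2 fold change and edgeR's F statistic, and a prior count of 2 entered log2 CPM. Alternatives were DESeq2 1.42.0, limma-voom (limma 3.58.1), other normalizations and filters, only the compared groups, a replicate block, a log2 fold change of at least 1 as the study used, and the omission of single samples. Transcript length in place of exon length was added after seeing the data. The test was checked on simulated counts with known changes. Exon lengths and overlaps came from GENCODE M21 (GRCm38), shared stretches from BLAST 2.17.0, and figures from matplotlib 3.10.9. Counts without a symbol were at most 0.0279% of a library and came from 279 of the identifiers.

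The members, gene lists, motifs and tests were chosen with earlier results of these data known. Named by rule were the 10 members, the genes called in CEBPA-first against CSF3R-only among the 3 highest or 3 lowest of each complex or target list (or any gene of a list of 6 or fewer), the 3 genes most correlated with Ezh1 and with Ezh2, and the mouse genes of the transgenes. Marker, dividing-cell and stimulus lists are given as a whole, and the genes named from them are examples chosen after their values were seen. Kdm5d was likewise named, for its Y linkage, after its values were seen.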

Additional observations from a re-analysis of the deposited data

Results flagged for a closer look

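Within groups of 4 samples, 76 sets of values (the members' CPM, the ratios and the summed level of each gene list) were screened for a sample far from the other 3, and 6 were found where chance alone gives about 3.8, since it marks about 1 in 20. In CSF3R-only replicate B, Asxl1 stood at 92.9 CPM against 111.6 to 114 in the other 3 replicates. In CEBPA-first replicate B, Asxl1 was at 149.8 CPM against 134 to 137 and Bmi1 at 52.5 CPM against 45.8 to 46.8, and the summed PR-DUB genes were at 981.5 CPM against 877.7 to 890.5. Suz12 counts in CEBPA-first replicate D were 8.55% of the summed Mcm2 to Mcm7 counts against 8.89% to 8.91%. The summed megakaryocyte markers were at 905.7 CPM in CSF3R-only replicate A against 1192.5 to 1229.8.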

How the results depend on the processing

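With a log2 fold change of at least 1 also required, members called were 1 (Kdm6b), 0 and 0 in CEBPA-first against CSF3R-only, CSF3R-first against CSF3R-only and CEBPA-first against CSF3R-first, in place of 10, 6 and 6. DESeq2 and limma-voom gave the same 0 and 0 with this fold, as did edgeR at an unadjusted p under 0.05. All genes called were then 4244, 1045 and 2016 in place of 11314, 6703 and 7578, and genes of the complexes 11, 0 and 3 in place of 61, 36 and 37. The log2 fold change of Kdm1a in CSF3R-first against CSF3R-only, -0.02, became 0.07 with library size only, 0.03 with no count filter, 0.02 without CSF3R-first replicate A and 0.01 without CSF3R-first replicate C. With other samples left out it reached -0.06. Its adjusted p was at least 0.46 under each alternative, and the cause was not tested. With each sample left out in turn, members called were 10, 4 to 6 and 5 to 6. The 4 came without CSF3R-first replicate B (Bmi1 and Kdm6b lost) and the 5 of the last comparison from the loss of Eed, which was also lost with no count filter, with at least 10 counts in every sample and with only the compared groups. Library size scaling raised the median log2 fold change of all genes to 0.129 in CEBPA-first against CSF3R-only. Under it the Kmt2a call was lost there, and Asxl2 was called in CSF3R-first against CSF3R-only (0.22, adjusted p = 0.0447). No called gene of the lists changed sign under the 3 other scalings. Of the alternative values for members, 579 kept their direction and their side of the threshold, 16 lost a call, 1 gained one and 4 turned sign. The log2 ratio of Ezh2 to Ezh1, 1.43 higher in CEBPA-first than in CSF3R-only, ranged from 1.33 to 1.51 with samples left out. Replicate letters are shared across groups, and the labels do not say what they mark. Deviations from the group means correlated between samples of the same letter with r from -0.107 to 0.362, positive in all but 1 pair but not above 0.1 in all. Between samples of different letters r ran from -0.341 to 0.384 and was mostly negative. The samples were not treated as paired, and a shared source remains undecided. A replicate block on the letter gave 10, 6 and 6 members called and 11501, 7216 and 7705 genes.

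Depth did not limit the members, but groups of 3 or 4 samples limit how small a change can be called. Proteins and histone marks were not analysed here.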
